A study of Homo sapiens with 17 samples.

Results

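Messenger RNA of HEK293 cells was sequenced 36 h after electroporation with Cas9 or with the catalytically inactive dCas9, and the 5 libraries of this comparison, of 17 in the series, are described here. They were taken by their labels: libraries a, b and c were labelled Cas9 and libraries d and e dCas9, so that 3 stood against 2. HEK293 is an established line of transformed human embryonic kidney cells. The labels give 300 pmol of Cas9 with 300 pmol of guide RNA as a ribonucleoprotein (RNP) for both groups, while the methods of the study also describe smaller electroporations with less of each and say that small ones were pooled for these libraries. The guide was directed to intron 12 of JAK2 in both groups, so that binding at the target was shared and cutting was not. Both groups also shared the electroporation itself, and an untreated group is not part of the comparison. The share of cells cut at the target was not analysed here. By the methods, a plate of pooled electroporations was a biological replicate and each condition had 2, whereas 3 libraries are labelled Cas9. The labels do not say how the third is related to the others, so the P values measure the spread between these libraries, part of which may be technical.

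A DNA double strand break (DSB) is recognised by the Ku proteins or by the resection machinery and repaired by end joining or by recombination. The kinases ATM, ATR and DNA-PK signal the break, and this signal induces genes such as CDKN1A, which encodes the cell cycle inhibitor p21, and MDM2, which encodes a ubiquitin ligase. Ribosomal proteins such as RPS27A, which is made as a fusion with ubiquitin, are encoded by abundant mRNAs with a 5′ terminal oligopyrimidine (TOP) start, and these mRNAs are regulated together in translation. The integrated stress response acts through phosphorylation of eIF2α and translation of ATF4, which then induces metabolic and stress genes.

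The TOP starts of 4 of these mRNAs are shown because the ribosomal protein mRNAs were among those measured most precisely. Each stretch holds 10 bases before and 20 bases after the RefSeq start on GRCh38.p14, written 5′ to 3′, and the capitals mark the run of pyrimidines from the start.
RPS27A, chr2:55232678-55232707, plus strand: ggcgttcttcCTTTTCgatccgccatctgc
RPS10, chr6:34426050-34426079, minus strand: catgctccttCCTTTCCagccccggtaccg
RPL22, chr1:6199576-6199605, minus strand: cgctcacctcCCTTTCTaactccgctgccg
EEF1A1, chr6:73521013-73521042, minus strand: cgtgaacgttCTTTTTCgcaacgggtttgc
A gene was counted where at least 1 of its listed starts was a C followed by at least 4 further pyrimidines. This held for 47 of 63 ribosomal protein genes with a listed start (74.6%). It held for 9 of 10 elongation factor and other TOP genes (90.0%) and for 768 of 10284 tested genes (7.47%). RPS27A has 3 listed starts, of which 1 is shown. These letters describe the annotation and not the starts used in HEK293 cells.

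The libraries held between 37084302 and 49216922 counts over all transcripts, and between 25074490 and 33320270 over the single transcript kept per gene. A gene was tested where its mean count over the 5 libraries was at least 20, which left 12821 of 15536 genes with any count. Library dCas9 e stood apart from the other 4. The first principal component held 50.2% of the variance and placed dCas9 e at 52.1 and the others between -14.1 and -10.7. The median absolute log2 difference between paired libraries was 0.136 to 0.179 for the 6 pairs without dCas9 e, and 0.196 to 0.229 for the 4 pairs with it. It also had the fewest genes with a count, 13580 against 14192 to 14671, and its level relative to the other libraries had the lowest Spearman's rho with coding length across genes, -0.234 against -0.044 to 0.227. The comparison of the nucleases therefore rests on dCas9 d and dCas9 e, which differed by a median of 0.211 on the log2 scale. Coding GC content also correlated with the level relative to the other libraries, by Spearman's rho between -0.330 (Cas9 c) and 0.415 (Cas9 a) across genes of 1 library each, which are not independent, and with an offset for it the test again called NTS alone. All 7 HEK293 marker genes had counts. Their summed level was 1062 to 1114 normalised counts (CPM, counts scaled to a common library total by TMM) in Cas9 and 1105 to 1202 in dCas9 libraries, most of it VIM, and PAX2 was at 0 in Cas9 c and dCas9 e. Of 8 erythroid markers, those that define K562 cells, 5 were at 0 in every library, and the summed level was at most 1.95 CPM. Leukocyte and hepatocyte markers summed to at most 0.937 and 0.540 CPM, and fibroblast markers to 6.28 to 11.4 CPM with overlapping groups.

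The mRNA of 1 gene, NTS, passed the test between Cas9 and dCas9 at 36 h, and that gene was lower in Cas9 cells. This was 0.0078% of the 12821 genes tested (edgeR quasi-likelihood test, false discovery rate 0.1). NTS encodes the secreted peptide neurotensin and lies on chromosome 12 (85874295 to 85882992, GRCh38). Its counts were 0, 3 and 0 in the Cas9 libraries a, b and c, and 56 and 100 in the dCas9 libraries d and e. All Cas9 libraries lay below both dCas9 libraries. Bulk RNA cannot tell fewer cells with an mRNA from less of it per cell. Over the groups 3 counts stood against 156, a ratio corrected for depth of 0.0116 (95% interval 0.00236 to 0.0344, counting error only), and the fitted log2 difference was -6.20 ± 1.22 (SE, adjusted P = 0.000716, edgeR). Without Cas9 a the adjusted P of NTS was 0.694, and with counts summed over all its transcripts it was 0.176. Ribosome footprints of the same time held 2 NTS counts in Cas9 a and 0 in the other 3 libraries, too few for a comparison. At 72 h, NTS had 27 and 25 counts in Cas9 and 12 and 29 in dCas9 mRNA libraries, and these groups overlapped.

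For genes as a whole, a Cas9 and a dCas9 library differed by about as much as libraries of the same group. The median absolute log2 difference was 0.136 to 0.229 over the 6 pairs between the groups and 0.161 to 0.211 over the 4 pairs within a group. Between the fitted group means it was 0.12, a 1.085-fold difference. Among 12821 genes, 577 (4.50%) had an unadjusted P under 0.05, where 641 would be 5% of them, and 237 (1.85%) differed by more than 1 on the log2 scale. DESeq2 called NTS alone and had 551 genes with P under 0.05, and limma-voom called NTS alone with 736. In 1119 genes (8.73%) every Cas9 library lay above both dCas9 libraries, and in 1195 genes (9.32%) every Cas9 library lay below. An exact permutation test of 3 against 2 libraries cannot go below P = 0.1, so single values were not tested in that way. The counts depended on the dCas9 libraries. Without dCas9 d, so that dCas9 e alone stood for dCas9, 587 genes were called, and without dCas9 e the test called 3 genes (NTS, AMOT and the histone gene H2BC10, the latter pair named after their values were seen).

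**Figure D1:**
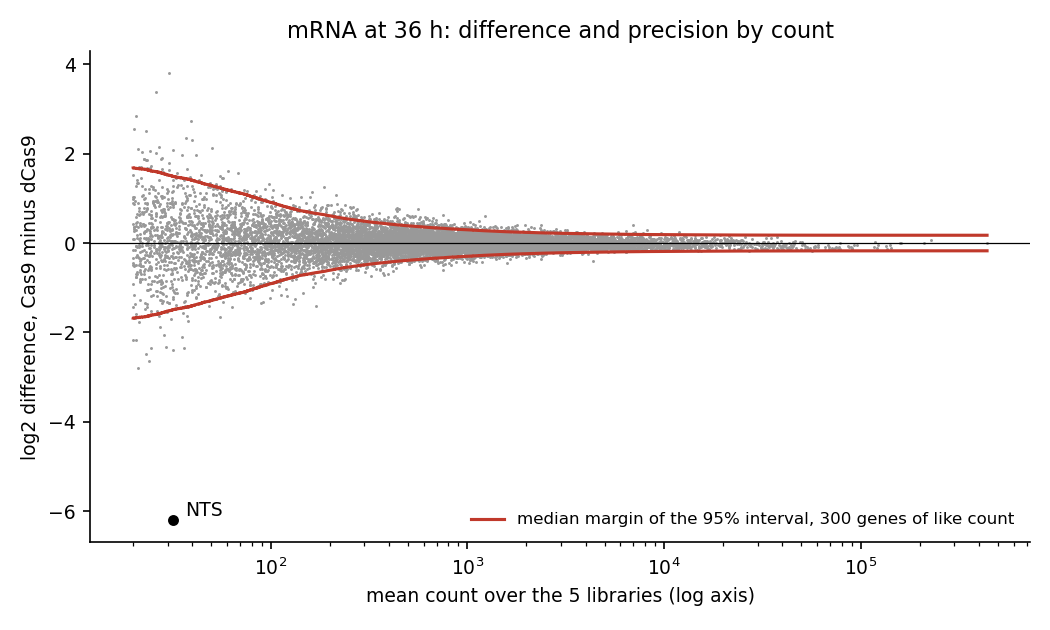
Each point is a tested gene, with the mean count over the 5 libraries on the x axis (log scale) and the log2 difference of Cas9 minus dCas9 at 36 h on the y axis. The lines mark the running median margin of the 95% interval in both directions, which narrows as counts grow, and NTS, at -6.20, lies far outside it.

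How large a difference remained possible was read from the 95% interval of each gene. The margin of the interval, the distance from the estimate to either end, had a median of 0.33 on the log2 scale, with a 10th percentile of 0.21 and a 90th percentile of 1.12. An equivalence test asks the opposite question to the usual test. It places the difference within a limit in both directions, by a pair of one-sided tests from the same fit with Benjamini-Hochberg adjustment over all genes at 0.1, and a gene that passes is called bounded here. The limits were 25% (a fold between 0.8 and its inverse), 1.5-fold and 2-fold. The 95% interval of a bounded gene can still reach past the limit. MT-ATP8, for example, was bounded within 1.5-fold with an interval of the fold up to 1.55. By this test 3128 genes (24.4%) were bounded within 25%, 9262 (72.2%) within 1.5-fold and 11180 (87.2%) within 2-fold. Leaving out any of the 5 libraries left 0 to 42 genes bounded within 25% and 7446 to 8731 within 1.5-fold.

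The bound depended on the count. For 1724 genes with a mean count from 20 to 100, the median margin was 1.30 on the log2 scale (2.47-fold), none was bounded within 1.5-fold and 325 (18.9%) were bounded within 2-fold. For 3256 genes from 100 to 500 the median margin was 0.52, and 49.2% were bounded within 1.5-fold. For 4753 genes from 500 to 2000 it was 0.30, and 96.2% were bounded within 1.5-fold. For 2653 genes from 2000 to 10000 it was 0.21, and all but 1 were bounded within 1.5-fold. Of the 435 genes over 10000, with a median margin of 0.18 (1.13-fold), 410 were bounded within 25% and all within 1.5-fold. The narrowest interval of all belonged to EEF1A1, the elongation factor that brings aminoacyl-tRNA to the ribosome and whose start is shown above. It was at 14720, 15660 and 14920 CPM in Cas9 and 14730 and 15690 CPM in dCas9 libraries, and the groups overlapped. Its fold of Cas9 over dCas9 lay between 0.895 and 1.10. In the highest class the widest interval was that of the mitochondrial MT-ATP6, a subunit of the ATP synthase, with a fold between 0.856 and 1.14. In the lowest class, 99 genes had no count in at least 1 library.

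**Figure D2:**
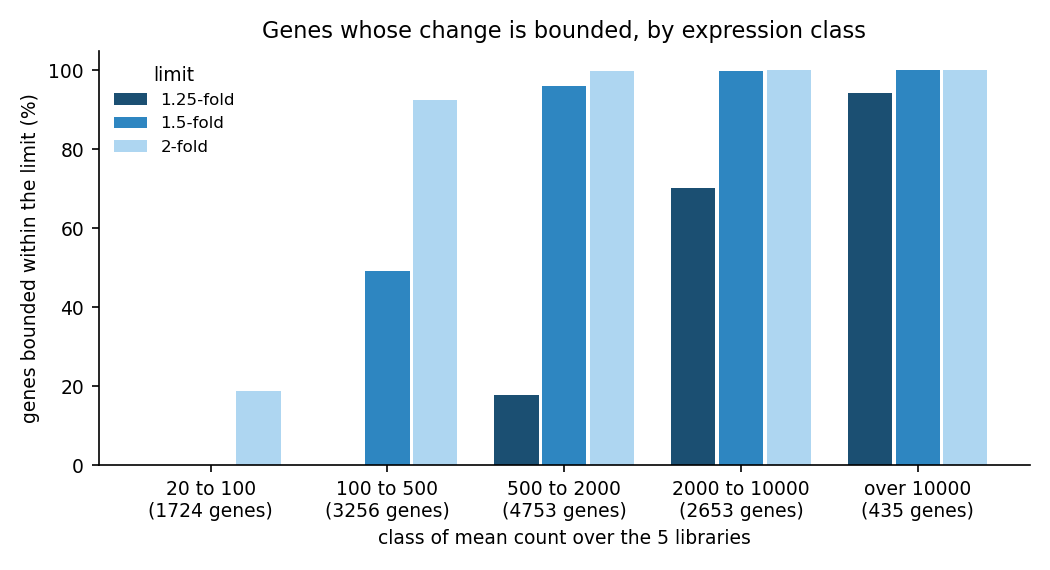
Bars give the percent of genes (y axis) bounded within 25% (dark), 1.5-fold (middle) and 2-fold (light) in each class of mean count over the 5 libraries (x axis). Within 1.5-fold the share is 0 for 20 to 100 counts, 49.2% for 100 to 500 and 100% over 10000.

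Besides NTS, the genes with the smallest P among those where each Cas9 library differed in 1 direction from both dCas9 libraries did not pass the test, and each named here had an adjusted P of at least 0.615 (edgeR). Highest in Cas9 by this rule stood ATP2B4, a calcium pump of the plasma membrane, with counts of 701, 502 and 875 in Cas9 and 415 and 301 in dCas9 (log2 difference 0.77 ± 0.19, SE). The histone gene H2BC6 had 6721, 7831 and 9378 counts in Cas9 and 4985 and 5989 in dCas9 libraries (0.41 ± 0.11). MTRES1, a mitochondrial RNA-binding protein, had 472, 588 and 566 counts in Cas9 and 281 and 296 in dCas9 (0.78 ± 0.21). That every Cas9 library lay above both dCas9 libraries was the rule by which all 10 genes of this direction were picked. MST1, which encodes macrophage-stimulating protein and has near-identical pseudogene copies, had 72, 47 and 27 counts against 6 and 0. LRRC17 had 39, 27 and 58 against 0 and 7. DNAJC24, a J-domain protein of diphthamide synthesis, had 203, 186 and 365 against 113 and 72. TYW1B, PPIG, ATP6V0A1 and NBPF20 completed the 10, with log2 differences between 0.41 and 0.63, and TYW1B and NBPF20 belong to families of near-identical copies. Without dCas9 e the differences were smaller, such as 0.47 for ATP2B4, 0.29 for TYW1B and 0.26 for PPIG. The exceptions were H2BC6 (0.44) and LRRC17, where dCas9 d held 0 counts.

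On the other side, the zinc finger gene ZSCAN30 had 159, 78 and 89 counts in Cas9 and 170 and 357 in dCas9 libraries (log2 difference -1.40 ± 0.34, adjusted P = 0.615, edgeR). SPATA18, a damage-induced gene that acts in mitochondrial quality control, had 95, 91 and 87 counts in Cas9 and 200 and 193 in dCas9 (-1.25 ± 0.36, adjusted P = 0.909). In SPATA18 the libraries of each group lay close together, and its difference was -1.11 without dCas9 d and -1.37 without dCas9 e. UCN, which encodes the peptide urocortin, had 16, 21 and 5 counts against 41 and 98. CHCHD6, ZNF879, CALCB, SIPA1L1, MIF4GD and GLI4 made up the rest, with differences between -1.37 and -0.39. CALCB encodes a calcitonin gene-related peptide, MIF4GD a translation initiation factor of histone mRNAs and GLI4 a zinc finger protein. Apart from SPATA18, the differences of the genes in this paragraph were smaller in size without dCas9 e, such as -0.91 for ZSCAN30 and -0.11 for CALCB.

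JAK2, the tyrosine kinase gene that the guide targets, lies on the plus strand of chromosome 9 (4984390 to 5129948, GRCh38), and intron 12 of its canonical transcript of 25 exons spans 5070053 to 5072491. A cut in an intron leaves the coding sequence in place, so the JAK2 count does not check the labels. JAK2 mRNA was at 4.21, 5.17 and 8.10 CPM in Cas9 and 5.54 and 7.92 CPM in dCas9 libraries. The highest library was a Cas9 library and the groups overlapped. The log2 difference was -0.21 and the 95% interval of the fold ran from 0.551 to 1.36, so that JAK2 was bounded within 2-fold but not within 1.5-fold.

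Around the target, 13 genes within 1 Mb of the intron were tested. None passed the test, 2 had an unadjusted P under 0.05, 2 lay above 0 and 11 below, and the median log2 difference was -0.21 against -0.0015 for 12299 genes of other chromosomes. In 5 of the 13 every Cas9 library lay below both dCas9 libraries (9.32% of all genes did), and in 1 every Cas9 library lay above (8.73% of all genes did). PLGRKT, a plasminogen receptor, was at 3.78, 6.63 and 7.98 CPM in Cas9 and 9.41 and 12.5 CPM in dCas9 (log2 difference -0.84, adjusted P = 0.920, edgeR). SLC1A1, a glutamate transporter, was at 2.78, 3.55 and 2.28 CPM in Cas9 and 5.62 and 4.85 CPM in dCas9 (-0.87). In PLGRKT and SLC1A1, as in RCL1 (-0.21), RIC1 (-0.14) and the hormone gene RLN2 (-1.11), the groups did not overlap. AK3, an adenylate kinase between SLC1A1 and JAK2, was at 39.2, 41.6 and 42.5 CPM in Cas9 and 36.9 and 38.7 CPM in dCas9, and so in the other direction.

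The level of the 13 genes moved with single libraries. Their median relative to the mean of the 5 libraries was -0.18 in Cas9 a, -0.04 in Cas9 b, 0.02 in Cas9 c, 0.04 in dCas9 d and 0.24 in dCas9 e. Cas9 a was low and dCas9 e high, while the other 3 libraries lay within 0.1 of each other. Without dCas9 e the median difference was -0.05, and without Cas9 a it was -0.12. The part of either library in this value was not tested. For 11 genes between the end of the chromosome and this window the median difference was 0.00, and for the other 498 genes of chromosome 9 it was -0.01. Within the window 7 of 13 genes were bounded within 1.5-fold.

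**Figure D3:**
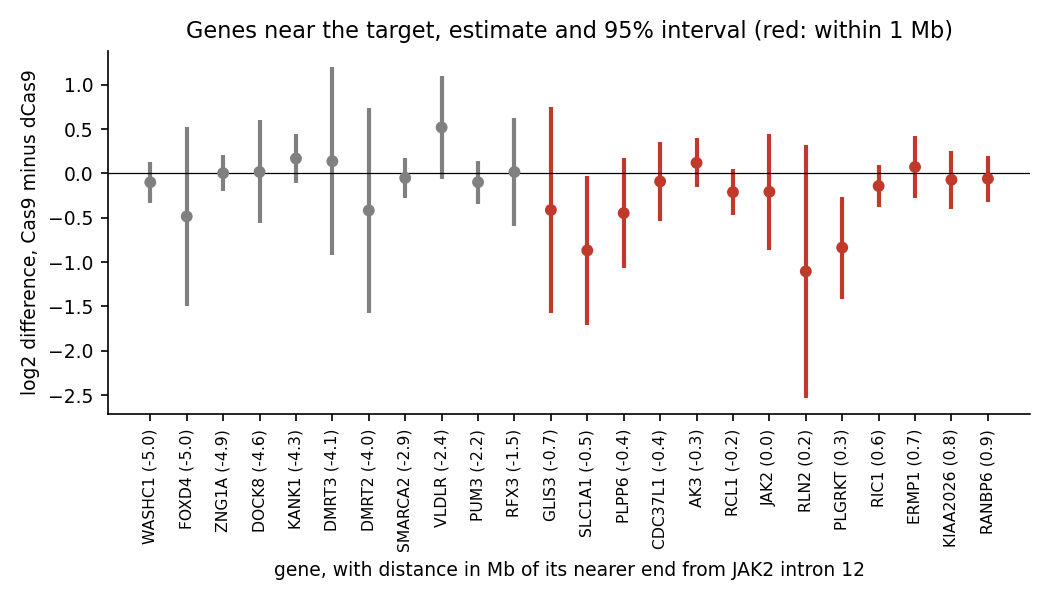
Log2 difference of Cas9 minus dCas9 at 36 h (y axis, points with 95% intervals) for the tested genes from the end of chromosome 9 to 1 Mb past JAK2 intron 12, in order along the chromosome with the distance in Mb beside each name. Of the 13 genes within 1 Mb, 11 lie below 0, with a median of -0.21, and the interval of JAK2 itself spans 0.

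A set of 17 genes was taken for their place in the pathways the study concerns, some of which it assayed and others not: the target, ribosomal proteins, and genes of the damage and stress responses. None of the 17 passed the test, 1 (PRKDC) had an unadjusted P under 0.05, and 9, 14 and 16 of them were bounded within 25%, 1.5-fold and 2-fold. The 3 that were not bounded within 1.5-fold were JAK2, CDKN1A and ATF5. In ATF5 every Cas9 library lay above both dCas9 libraries (8.73% of all genes did), and in none of the 17 did every Cas9 library lie below (9.32% of all genes did).

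**Figure D4:**
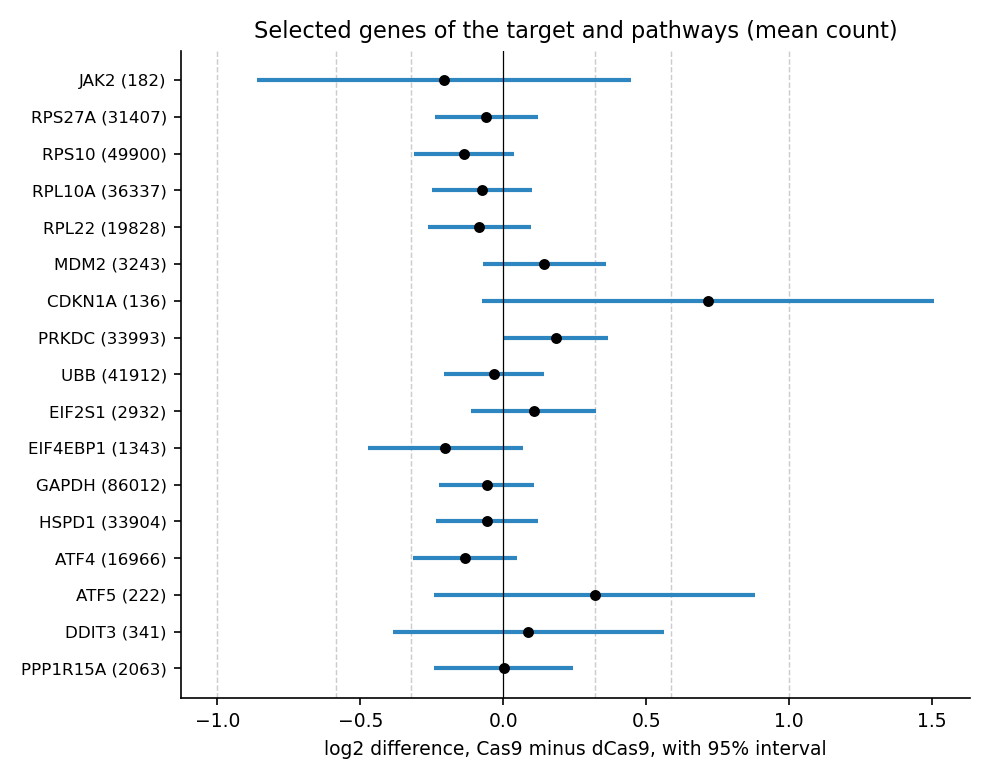
Log2 difference of Cas9 minus dCas9 at 36 h (x axis, points) with its 95% interval (bars) for the 17 selected genes, with mean counts in brackets and dashed lines at the 3 limits. The interval of RPS27A is among the narrow ones and that of CDKN1A, from 0.949- to 2.84-fold, is the widest.

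RPS27A mRNA was at 1020, 1121 and 1053 CPM in Cas9 and 1008 and 1209 CPM in dCas9 libraries. The lowest and the highest library were both dCas9. Its log2 difference was -0.06, and the 95% interval reached from a fall of 15.2% to a rise of 8.67%. RPS27A was bounded within 25% with all 5 libraries, a bound that 0 genes met without Cas9 a, Cas9 b or Cas9 c. RPS10 was at 1713, 1700 and 1549 CPM against 1663 and 1976 CPM, RPL10A at 1266, 1259 and 1154 CPM against 1220 and 1363 CPM, and RPL22 at 645, 681 and 674 CPM against 655 and 759 CPM. In each of these the groups overlapped and dCas9 e was the highest library. The interval of the fold was 0.806 to 1.03 for RPS10, 0.842 to 1.07 for RPL10A and 0.832 to 1.07 for RPL22. Without dCas9 e the difference was 0.08 for RPS27A and -0.00 for RPS10, and without dCas9 d it was -0.18 and -0.26, of which that of RPS10 passed the test (adjusted P = 0.0741, edgeR).

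All ribosomal protein mRNAs were bounded within 1.5-fold. Of 79 genes, 77 were tested, and 72 of them were also bounded within 25% with all 5 libraries. The list is the one the study used. Their log2 differences lay between -0.21 (RPS26, a protein of the mRNA exit region of the small subunit) and -0.00 (RPL9), all 77 below 0 with a median of -0.08. None passed the test and 1 had an unadjusted P under 0.05. In 8 of the 77 every Cas9 library lay below both dCas9 libraries, where 9.32% of all genes did. RPS26 was at 110.7, 105.1 and 107.6 CPM in Cas9 and 113.5 and 134.9 CPM in dCas9, and RPLP0, the stalk protein with the lowest value in the large subunit, at 2603, 2603 and 2503 CPM against 2613 and 3125 CPM. In both, dCas9 e stood well above the other 4 libraries. Over the list the median level relative to the mean of the libraries was -0.04, 0.01 and -0.08 in Cas9 a, b and c, -0.06 in dCas9 d and 0.16 in dCas9 e. Without dCas9 e the median difference was 0.03, with 54 genes above 0 and 23 below, and without dCas9 d it was -0.19, with 77 below 0. Ribosomal protein genes are short, and dCas9 e is the library whose relative level was most negatively correlated with coding length, with rho 0.148 across genes for the difference of Cas9 minus dCas9. The part of length and of dCas9 e in these values was not tested further. Ribosomal protein genes have many processed pseudogenes, and reads shared with them could not be told apart in the counts.

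**Figure D5:**
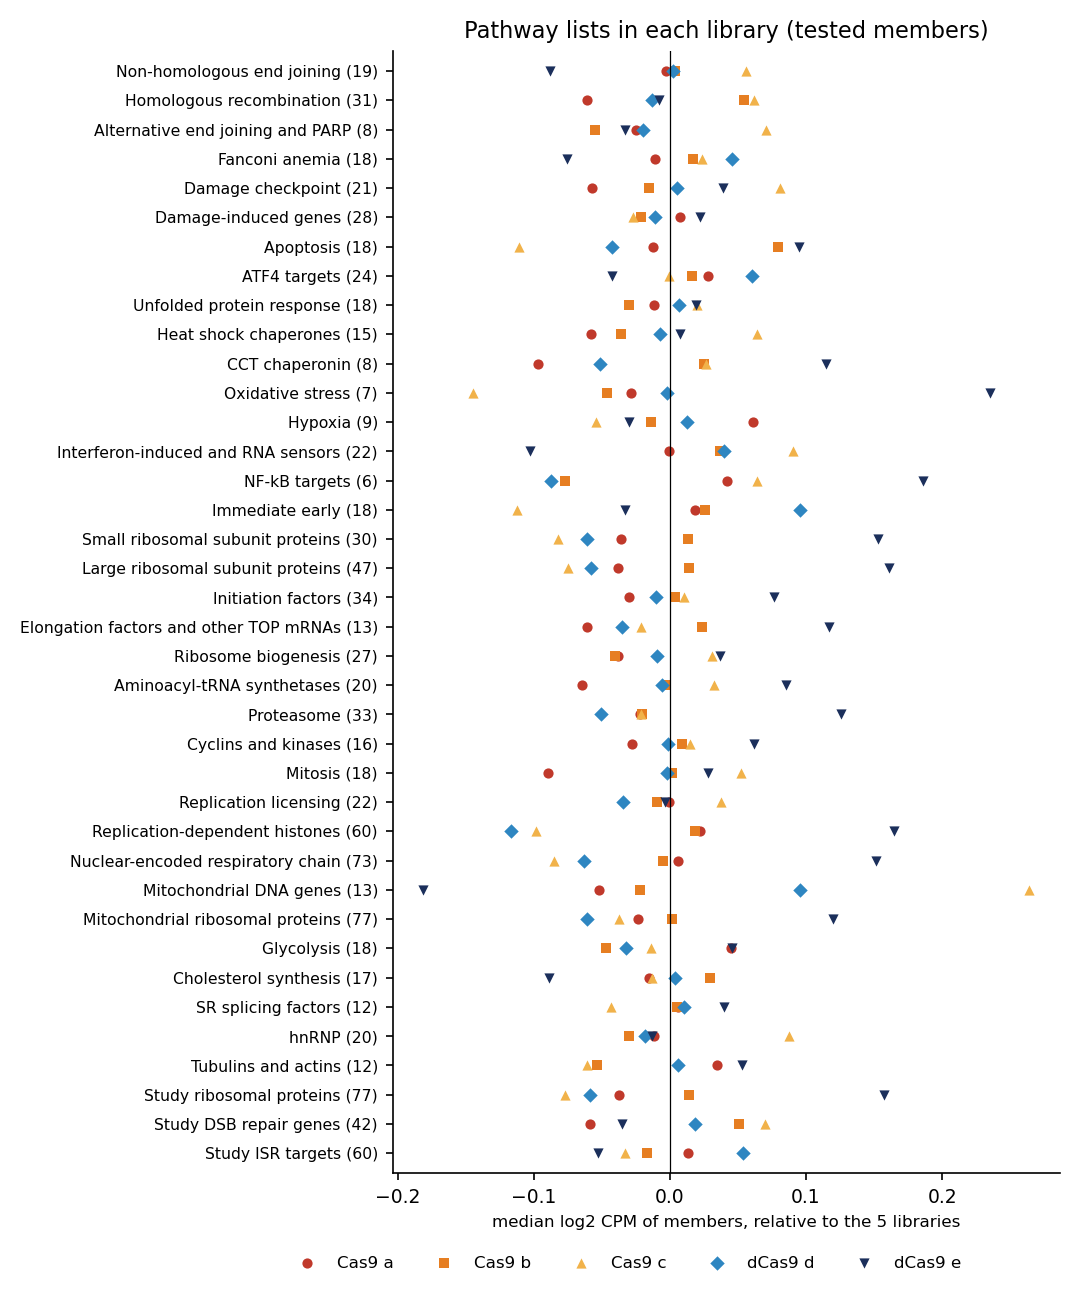
Each row is a pathway list of at least 6 tested members (number in brackets), and each symbol is 1 library at the median log2 CPM of the members relative to the mean of the 5 libraries (x axis). In the ribosomal protein rows dCas9 e lies to the right at about 0.16 while dCas9 d lies among the Cas9 libraries.

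The other TOP mRNAs and the rest of the translation apparatus were also bounded within 1.5-fold. With all 5 libraries, those bounded within 25% were 12 of 13 TOP, 28 of 34 initiation, 20 of 27 biogenesis and 17 of 20 synthetase genes. All 13 elongation factor and other TOP genes were bounded within 1.5-fold, with differences from -0.15 (EEF1D) to 0.12 (NAP1L1, a histone chaperone) and no interval past 1.26-fold. All 34 tested initiation factor genes, 27 ribosome biogenesis genes and 20 aminoacyl-tRNA synthetase genes were bounded within 1.5-fold. Their extremes were EIF4EBP1, the inhibitor of cap-dependent initiation, at -0.20 and EIF2AK2, the kinase PKR, at 0.16, the pseudouridine synthase DKC1 at -0.18 and NOP58 at 0.13, and WARS1 at -0.19 and EPRS1 at 0.11. EIF2S1, which encodes eIF2α, was at 99.1, 100.8 and 110.1 CPM in Cas9 and 89.5 and 102.5 CPM in dCas9, and EIF4EBP1 at 45.9, 47.6 and 38.1 CPM against 45.9 and 54.9 CPM. The groups overlapped in both genes, and the interval of EIF2S1 reached from a fall of 7.5% to a rise of 25.2%, while the fold of EIF4EBP1 lay between 0.721 and 1.05.

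UBB, which encodes a polyubiquitin, was at 1531, 1344 and 1399 CPM in Cas9 and 1365 and 1548 CPM in dCas9, with overlapping groups and a fold between 0.866 and 1.10. All 33 proteasome genes were bounded within 1.5-fold, from PSMC1, an ATPase of the base, at -0.20 to PSMD6, a lid subunit, at 0.16, with a median of -0.05 (0.03 without dCas9 e and -0.15 without dCas9 d).

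Genes of break repair did not pass the test, and 1 gene of end joining and 1 of homologous recombination had an unadjusted P under 0.05. Of 19 end joining genes, 15 were bounded within 1.5-fold, with a median difference of -0.02. The median was 0.08 without dCas9 d and 0.02 without dCas9 e. XRCC6, which encodes Ku70, was at 1047, 1092 and 1101 CPM in Cas9 and 1069 and 1139 CPM in dCas9, and its fold lay between 0.868 and 1.10. SHLD1, a shieldin subunit that limits resection, was the lowest at 2.09, 2.68 and 2.37 CPM against 2.53 and 6.28 CPM, where dCas9 e alone was high. PRKDC, the catalytic subunit of DNA-PK, was at 1159, 1166 and 1348 CPM in Cas9 and 1172 and 982 CPM in dCas9. Here dCas9 e was low and the groups overlapped (log2 difference 0.19, adjusted P = 0.998, edgeR). PRKDC passed the test without dCas9 d (0.32, adjusted P = 0.0330) and had 0.07 without dCas9 e.

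Of 31 homologous recombination genes, 27 were bounded within 1.5-fold and all within 2-fold, with a median of 0.05. BRCA2, which acts in strand invasion, was the highest at 25.22, 31.82 and 34.97 CPM in Cas9 and 24.84 and 22.34 CPM in dCas9 (log2 difference 0.38, adjusted P = 0.998, edgeR), and the groups did not overlap. MUS81, a nuclease that resolves joint molecules, was the lowest at 32.0, 34.6 and 29.9 CPM against 39.9 and 36.1 CPM, again without overlap. The 8 alternative end joining and PARP genes and the 18 tested Fanconi anemia genes held 7 and 17 bounded within 1.5-fold. All 21 checkpoint genes were bounded within 1.5-fold, from the phosphatase gene CDC25C at -0.24 to ATR at 0.15, and their widest interval reached 1.59-fold. Over the 42 tested genes of the study's own list of DSB repair, 30 lay above 0, the median was 0.05 and 39 were bounded within 1.5-fold. That median was 0.01 without dCas9 e, with 23 above 0, and 0.04 without dCas9 d, with 18 below 0. With the trend on coding GC content removed it was 0.02, and that of the homologous recombination genes was 0.01.

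Genes induced by DNA damage did not pass the test either, and their intervals were wider. The ubiquitin ligase gene MDM2 was at 106, 126 and 117 CPM in Cas9 and 106 and 104 CPM in dCas9, and its fold lay between 0.953 and 1.28. CDKN1A was at 4.37, 6.75 and 5.64 CPM in Cas9 and 5.26 and 1.57 CPM in dCas9. The value of dCas9 e was low while dCas9 d lay among the Cas9 libraries, and the fold interval of 0.949 to 2.84 left CDKN1A outside every bound. CDKN1A passed the test without dCas9 d (log2 difference 1.83, adjusted P = 0.0179, edgeR) and stood at 0.09 without dCas9 e. Of 28 tested genes of the list of damage-induced genes, 4 had an unadjusted P under 0.05 (4.50% of all genes did), 19 (67.9%) were bounded within 1.5-fold and 26 within 2-fold, with a median of 0.04. In 5 of these genes every Cas9 library lay below both dCas9 libraries and in 2 above, against 9.32% and 8.73% of all genes. Of 18 apoptosis genes 14 were bounded within 1.5-fold, and the survival gene BCL2L1 was the lowest at -0.56.

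ATF4 mRNA was at 586, 569 and 533 CPM in Cas9 and 576 and 658 CPM in dCas9, with a fold between 0.803 and 1.04. ATF5, a related factor, was at 8.34, 9.32 and 7.35 CPM against 6.96 and 6.39 CPM, with a fold between 0.846 and 1.84. DDIT3, which encodes the factor CHOP, was at 12.2, 11.9 and 11.6 CPM against 7.79 and 14.6 CPM, and PPP1R15A, a phosphatase subunit that reverses the phosphorylation of eIF2α, at 82.0, 63.7 and 66.7 CPM against 73.3 and 68.3 CPM. In DDIT3 the Cas9 libraries lay between the dCas9 libraries. Of 24 tested ATF4 targets 20 were bounded within 1.5-fold, and the median was -0.0004. SLC7A11, a cystine transporter and the highest of them, was at 5.31, 6.12 and 2.88 CPM in Cas9 and 5.22 and 0.956 CPM in dCas9, so that dCas9 e alone was low. Over the 60 tested genes of the study's own list of targets of the integrated stress response, 29 lay above 0 and 31 below, the median was -0.04 and 34 were bounded within 1.5-fold. C7orf31 at -1.06 and PRELID3A at 1.35 were its extremes, both under 6 CPM in every library. The median of this list was 0.06 without dCas9 d and -0.03 without dCas9 e.

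How closely protein folding genes were bounded differed between the lists. All 18 tested genes of the unfolded protein response were bounded within 1.5-fold, from XBP1 at -0.13 to HSP90B1 at 0.16. With all 5 libraries fitted, 4 of the 18 were bounded within 25%, where 24.4% of all genes were. Their widest interval reached 1.57-fold. In the same fit all 8 subunits of the CCT chaperonin were bounded within 25%. The mitochondrial chaperone gene HSPD1 was at 1062, 1139 and 1237 CPM in Cas9 and 1112 and 1273 CPM in dCas9, and its fold lay between 0.850 and 1.09. Of 15 heat shock genes 14 were bounded within 1.5-fold and 13 within 25%. HSPA1A, which shares near-identical sequence with a neighbouring copy, was at 5708, 5313 and 5498 CPM against 5475 and 5524 CPM, a fold between 0.898 and 1.12.

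In lists of genes that respond to foreign nucleic acid or growth signals, median margins were 0.445 to 0.473, against 0.327 for all tested genes. Median mean counts of tested members were 311 (interferon), 571 (NF-κB) and 318 (immediate early), against 775 for all tested genes. Bounded within 1.5-fold were 68.2%, 66.7% and 44.4% of them, where 72.2% of all tested genes were. Of 39 interferon-induced genes and RNA sensors 22 were tested, and 15 of them were bounded within 1.5-fold, with a median of 0.02. Without dCas9 d the median was 0.14, and without dCas9 e it was 0.01. MX1, an antiviral GTPase, was the highest at 0.780, 1.26 and 1.32 CPM in Cas9 and 0.633 and 0 CPM in dCas9 libraries. No dCas9 library reached a Cas9 library, and the interval of the fold ran from 1.01 to 12.8 (adjusted P = 0.998, edgeR). The adjusted P of MX1 was 0.0123 without dCas9 d, where the only dCas9 library left is at 0, and its log2 difference was 0.82 without dCas9 e. USP18, which removes the ubiquitin-like ISG15, was the lowest at 25.8, 24.8 and 26.5 CPM against 33.3 and 29.7 CPM. Of 13 NF-κB target genes 6 were tested and 4 bounded within 1.5-fold, and of 18 tested immediate early genes 8, with ZFP36, which destabilises AU-rich mRNAs, at -0.85 and FOSL1 at 0.50.

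Cell cycle and housekeeping groups followed. All 18 mitosis genes and 21 of 22 replication licensing genes were bounded within 1.5-fold. Of 16 cyclin and kinase genes 14 were, with CDK1 the highest at 0.22 and the inhibitor CDKN1C the lowest at -0.98, at 0.570 to 2.02 CPM. Of 87 replication-dependent histone genes 60 were tested and 54 bounded within 1.5-fold. Their median was -0.06, 0.10 without dCas9 e and -0.19 without dCas9 d, and near-identical copies share reads. Of 73 nuclear-encoded respiratory chain genes 72 were bounded within 1.5-fold, and so were all 13 mitochondrial DNA genes, all 77 mitochondrial ribosomal protein genes and all 18 glycolysis genes. The widest interval reached 1.55-fold in the mitochondrial DNA genes and 1.52-fold in the mitochondrial ribosomal protein genes. GAPDH, often used for loading, was at 3045, 2860 and 2825 CPM in Cas9 and 2891 and 3169 CPM in dCas9, a fold between 0.857 and 1.08. Medians turned with the dCas9 library in these groups too. The respiratory chain had 0.05 without dCas9 e and -0.17 without dCas9 d, and the mitochondrial DNA genes -0.08 and 0.25. The 12 SR splicing factor genes held 11 and the 20 hnRNP genes 20 bounded within 1.5-fold, the latter with no interval past 1.24-fold. Of 12 tubulin and actin genes 11 were bounded, with the tubulin gene TUBA4A at -0.72. The 17 tested cholesterol synthesis genes held 16, the 7 of oxidative stress 4 and the 9 of hypoxia 7.

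Over all 39 pathway lists, which share members, 883 distinct genes were tested. None passed the test, 26 (2.95%) had an unadjusted P under 0.05, and 794 (89.9%) were bounded within 1.5-fold, where 72.2% of all genes were. The lists hold more highly counted genes than the genome as a whole. In 17 lists every tested member was bounded within 1.5-fold and in 27 lists within 2-fold. List medians ranged from -0.10 to 0.07. Library dCas9 e had the highest median of the 5 libraries in 21 lists and the lowest in 7.

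The mRNA libraries of 36 h bound the difference more closely than the ribosome footprints of the same time point. In 9014 genes tested in both, the median margin was 0.27 on the log2 scale in mRNA and 0.98 in footprints. The 4 footprint libraries held 689100 to 4863860 counts over the kept transcripts, and the 5 mRNA libraries 25074490 to 33320270. The part of depth and of library number in the margins was not tested. Compared with mRNA at 72 h, another experiment with 2 libraries of each nuclease, the margins were alike, with medians of 0.32 at both times over 12594 genes. For the difference at 36 h minus that at 72 h, 1237 genes had an unadjusted P under 0.05 (edgeR). This difference passed the test in 59 genes, 0.468% of those tested, with 58 positive and NTS negative. This count was 1 where Cas9 a, Cas9 c or dCas9 e of 36 h or Cas9 a of 72 h was left out and to 2 without Cas9 b of 36 h. It was 555 without dCas9 d of 36 h. Genes that share reads were counted separately, and among the 59 U2AF1 and ENSG00000275895 had the same counts in every library. The aligner, the annotation and the guide preparation differed between the times, so their part cannot be told apart from that of time.

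Among 293 genes called at 72 h, 270 were bounded within 1.5-fold at 36 h, where 72.2% of the 12821 genes tested at 36 h were. Of the 293, 283 (96.6%) had a 72 h estimate outside their own 36 h interval, against 24.8% of all genes. The 293 genes were picked by their 72 h difference, so the shares are a description. RPS16, a protein of the small subunit and the gene with the smallest P of the difference, is named after its values were seen. Its log2 difference was -0.14 at 36 h (95% interval -0.31 to 0.04) and -1.96 at 72 h, and the difference between the times was 1.84 ± 0.19 (SE, adjusted P = 0.000348, edgeR). At 36 h RPS16 was at 1133, 1124 and 1095 CPM in Cas9 and 1148 and 1311 CPM in dCas9. At 72 h it was at 85.5 and 84.0 CPM in Cas9 and 262 and 403 CPM in dCas9. The level of RPS16 thus differed between the experiments in the dCas9 libraries as well. The splicing and mRNA transport protein HNRNPA2B1, the single-stranded DNA-binding RPA1 and the nucleolar protein NCL had 36 h differences of 0.11, 0.05 and 0.01, against -0.99, -0.94 and -0.84 at 72 h. RPS27A did not pass this test (adjusted P = 0.527, edgeR).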

How the data were processed

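Per the labels and the study's methods, total RNA was depleted of ribosomal RNA and made into stranded libraries. The submitters' processing notes name HISAT2 2.1.0 and GRCh38. The authors deposited raw counts for each transcript in each library, with the counted length in codons. A read that fits several transcripts is counted on each. At 72 h the methods name another aligner and annotation release.

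Transcripts were matched to GENCODE genes on GRCh38 (25338 of 26679, 96.3% of counts), which also gave coordinates, and the transcript with the highest summed count was kept for each of 19492 genes. Genes whose counts averaged 20 or more were fitted with TMM factors in edgeR 4.0.16 (limma 3.58.1, R 4.3.3) over the 5 libraries, with the quasi-likelihood test and Benjamini-Hochberg adjustment at 0.1, the rate the study used. Residual degrees of freedom were 3, and 55.9 after moderation across genes. The median biological coefficient of variation was 12.3%. Differences are Cas9 minus dCas9 on the log2 scale. Intervals (95%) came from the same fit, as did the equivalence tests at 25%, 1.5-fold and 2-fold. The code was tested on simulated data. Differences between the times came from an interaction in one fit of 36 and 72 h libraries. Replicate letters at 36 h (a, b, c against d, e) pair no libraries.

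Named genes were JAK2 and genes within 1 Mb, 17 genes of the pathways the study concerns (others of that set are not reported here), up to 10 genes in each direction with the smallest P among those of the same direction in all 6 pairs, and in each list or class the extremes and the narrowest or widest intervals. The comparison, lists and named genes were chosen with earlier results of these data known. Alternatives included DESeq2 1.42.0, limma-voom, other scalings and filters, and leaving out each library. Reads and their multiple mapping were not examined.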

Additional observations from a re-analysis of the deposited data

Results flagged for a closer look

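The difference between Cas9 and dCas9 was not the same at 36 h and 72 h in 59 of 12594 genes, by a test of the difference itself (edgeR, false discovery rate 0.1). This count was 1 without Cas9 a, Cas9 c or dCas9 e of 36 h, and 555 without dCas9 d of 36 h. Of the genes named by the rules of the analysis, 4 were of this kind. RPS16, named after its values were seen, had the smallest P of the difference. Its log2 difference of Cas9 minus dCas9 was 1.84 higher at 36 h than at 72 h (adjusted P = 0.000348, edgeR).

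NTS had a log2 difference at 36 h that was -6.79 relative to that at 72 h (adjusted P = 0.0248, edgeR), with counts of 0, 3 and 0 in Cas9 and 56 and 100 in dCas9 at 36 h and of 27 and 25 in Cas9 and 12 and 29 in dCas9 at 72 h. The log2 difference of Cas9 minus dCas9 was higher at 36 h than at 72 h by 1.12 in HNRNPA2B1 (adjusted P = 0.0752). In RPA1 it was higher by 1.01 (adjusted P = 0.0467) and in NCL by 0.86 (adjusted P = 0.0467, all edgeR). Of the 20 hnRNP genes, 4 passed this test, where 59 of all 12594 genes (0.468%) did. Over all genes, the count was 1 or 2 without Cas9 a, b or c of 36 h.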

How the results depend on the processing

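At 36 h the letters a, b and c of Cas9 and d and e of dCas9 share no letter, so no pairing could be fitted there. With the 72 h letters as a replicate block, 108 genes differed between the times in place of 59, and the letters are not stated to mark a shared day or culture. DESeq2 called 214 for this count, no count minimum 281, and leaving out a library 1 to 555.

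The 1 gene called at 36 h became 2 with no count minimum, 0 with counts summed over transcripts, 0 in a joint fit with the 36 h footprints, and 0 (without Cas9 a) to 587 (without dCas9 d) when a library was left out. NTS was called in 11 of 14 distinct alternatives, with an adjusted P (edgeR, DESeq2 or limma-voom) between 2.02e-07 and 1. The exceptions were the joint fit (1), summed transcripts (0.176) and leaving out Cas9 a (0.694).

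The median margin of 0.327 was 0.3325 with library totals alone and with limma-voom, 0.340 with filterByExpr, 0.375 with no minimum, 0.339 in DESeq2, 0.571 in the joint fit, 0.375 with Cas9 a and c only (the same libraries as without Cas9 b), 0.336 with summed transcripts, 0.310 with an offset for coding GC content (chosen after seeing the data), and 0.369 to 0.381 without a library. Genes bounded within 1.5-fold numbered 5991 in the joint fit and 7446 to 8731 without a library. Those bounded within 25%, 3128 as reported, numbered 0 in the joint fit, 4099 with the GC offset and 0 to 42 without a library. The median absolute log2 difference of 0.118 was 0.117 to 0.187 without a library. The median of the study's integrated stress response list was -0.031 to 0.063 and that of the genes within 1 Mb of the target -0.26 to -0.053 without a library. With a library left out, its lone dCas9 partner was assumed to vary like the other group.

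Of 507 recomputed list medians, 491 stayed within the spread of the 6 pairs, and 15 of the 16 others left out a dCas9 library. Of 178 named genes, ZSCAN30, not called in the main fit, passed the test with no count minimum (adjusted P = 0.0497, edgeR). Fits that leave 1 dCas9 library are not part of this count. Many of the named genes were picked by their values in these data. No recomputed value that was called changed its direction. Causes were not tested. With 2 dCas9 libraries that differ from each other, intervals rest on the spread moderated over all genes, and for genes under 100 counts depth left a median margin of 1.30.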
